A study of Mus musculus with 8 samples.

Results

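The genes described here are those of regulated exocytosis and of the SNARE machinery in mouse pancreatic beta cells: the syntaxins, the SNAP25 and VAMP families, the syntaxin-binding, Unc13, Rims and complexin regulators, the synaptotagmins and Doc2 proteins, the Rab3 and Rab27 GTPases and the synaptotagmin-like proteins. They were chosen by gene symbol alone, as annotated in the scanner files. On the array, 114 probes of 74 such genes were found, and 101 probes of 67 genes were well above background on at least 4 of the 8 arrays and were analysed, out of 26076 probes that met this condition among 39429 on the array. The arrays compared 4 samples from high-fat diet mice with 4 samples from control diet (chow) mice, all C57BL/6 and all described as beta pancreatic cells, with total RNA labelled with Cy3 on 1-colour Agilent arrays. The samples are called biological replicates in the labels. How the cells were isolated, how long the diet lasted, and the age and sex of the mice are not given in the sources used here, nor whether animals were pooled.

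An insulin granule is released when a VAMP protein on its membrane zips together with a syntaxin and a SNAP25-family protein on the plasma membrane into a SNARE complex that pulls the membranes into fusion. Rab3 and Rab27 GTPases with their synaptotagmin-like effectors bring granules to the membrane, Rims and Unc13 proteins prime them, syntaxin-binding proteins hold and guide the syntaxin, complexins bind the assembled complex, and synaptotagmins and Doc2 proteins couple fusion to calcium. In beta cells the core complex is made of Stx1a, Snap25 and Vamp2, and Syt7 is a main calcium sensor.

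The 8 arrays sat on 2 slides with separate scans, each holding 2 arrays of each diet. On each slide the high-fat arrays were at positions 2 and 4 and the control arrays at positions 1 and 3, so position and diet cannot be told apart. Before scaling, the 75th percentile of the processed intensity lay between 363.4 and 472 on the high-fat arrays and between 333.6 and 710.8 on the control arrays, 63.6% to 68.6% of the spots on an array were well above background, and 0 spots were saturated. Levels below are log2 intensities minus each array's 75th percentile, so that 0 is the 75th percentile of that array, and they are compared between arrays for 1 probe at a time. All 9 beta-cell markers listed for this work, Ins1, Ins2, Iapp, Mafa, Pdx1, Nkx6-1, Slc2a2, Ucn3 and G6pc2, were well above background on all 8 arrays, and so were all 8 acinar markers. The summed level of the acinar list, as a multiple of the 75th percentile, was 1715 to 3074 on the high-fat arrays and 1428 to 2819 on the control arrays, and 0 of its 8 genes had an unadjusted p under 0.05.

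None of the 101 exocytosis probes passed the test for a diet difference. The test was limma's moderated test on all 26076 probes with Benjamini-Hochberg adjustment, and the smallest adjusted p among the exocytosis probes was 0.383. Over all probes 0 (0%) passed as well (smallest adjusted p 0.154). Before adjustment, 9 of the 101 exocytosis probes had a p under 0.05 (8.91%), against 5.78% of all probes. Of the 9, 4 were higher in high-fat, where 2.33% of all probes were, and 5 were lower, where 3.46% of all probes were. The 4 higher probes belong to Syt8, Rab3d (2 probes) and Sytl1, and the 5 lower probes to Rab3c, Syt1, Unc13d, Vamp1 and Stx16. With median scaling of the arrays, 5 of 7 such exocytosis probes were higher, where 65% of the calls over all probes were, against 40.3% with the 75th percentile. Leaving out 1 array at a time gave 6 to 11 such probes, except for 4 without control replicate 1 or 4 and 15 without control replicate 3. Over all probes, 1508 had such a p with every array in, and 1043 to 2702 with 1 array left out. The fewest were without control replicate 1 and the most without high-fat replicate 1. Of the 101 probes 60 had a difference below 0 (59.4%), as did 52.5% of all probes, and 41 one above 0 (40.6%), as did 47.5% of all probes. Taken as high-fat minus control on the log2 scale, the median difference was -0.08 for the exocytosis probes and -0.01 for all probes, beside a median SE of 0.17 for both. Counted with 1 probe for each of the 67 genes, the median was -0.04, and it was -0.01 for the 101 probes with median scaling. The median level of the 101 probes on an array ran from -0.74 to -0.42 on the high-fat arrays and from -0.84 to -0.48 on the control arrays, so the diets overlapped. The plot of differences by role shows most genes within a narrow band around 0, with a few at either end.

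**Figure D1:**
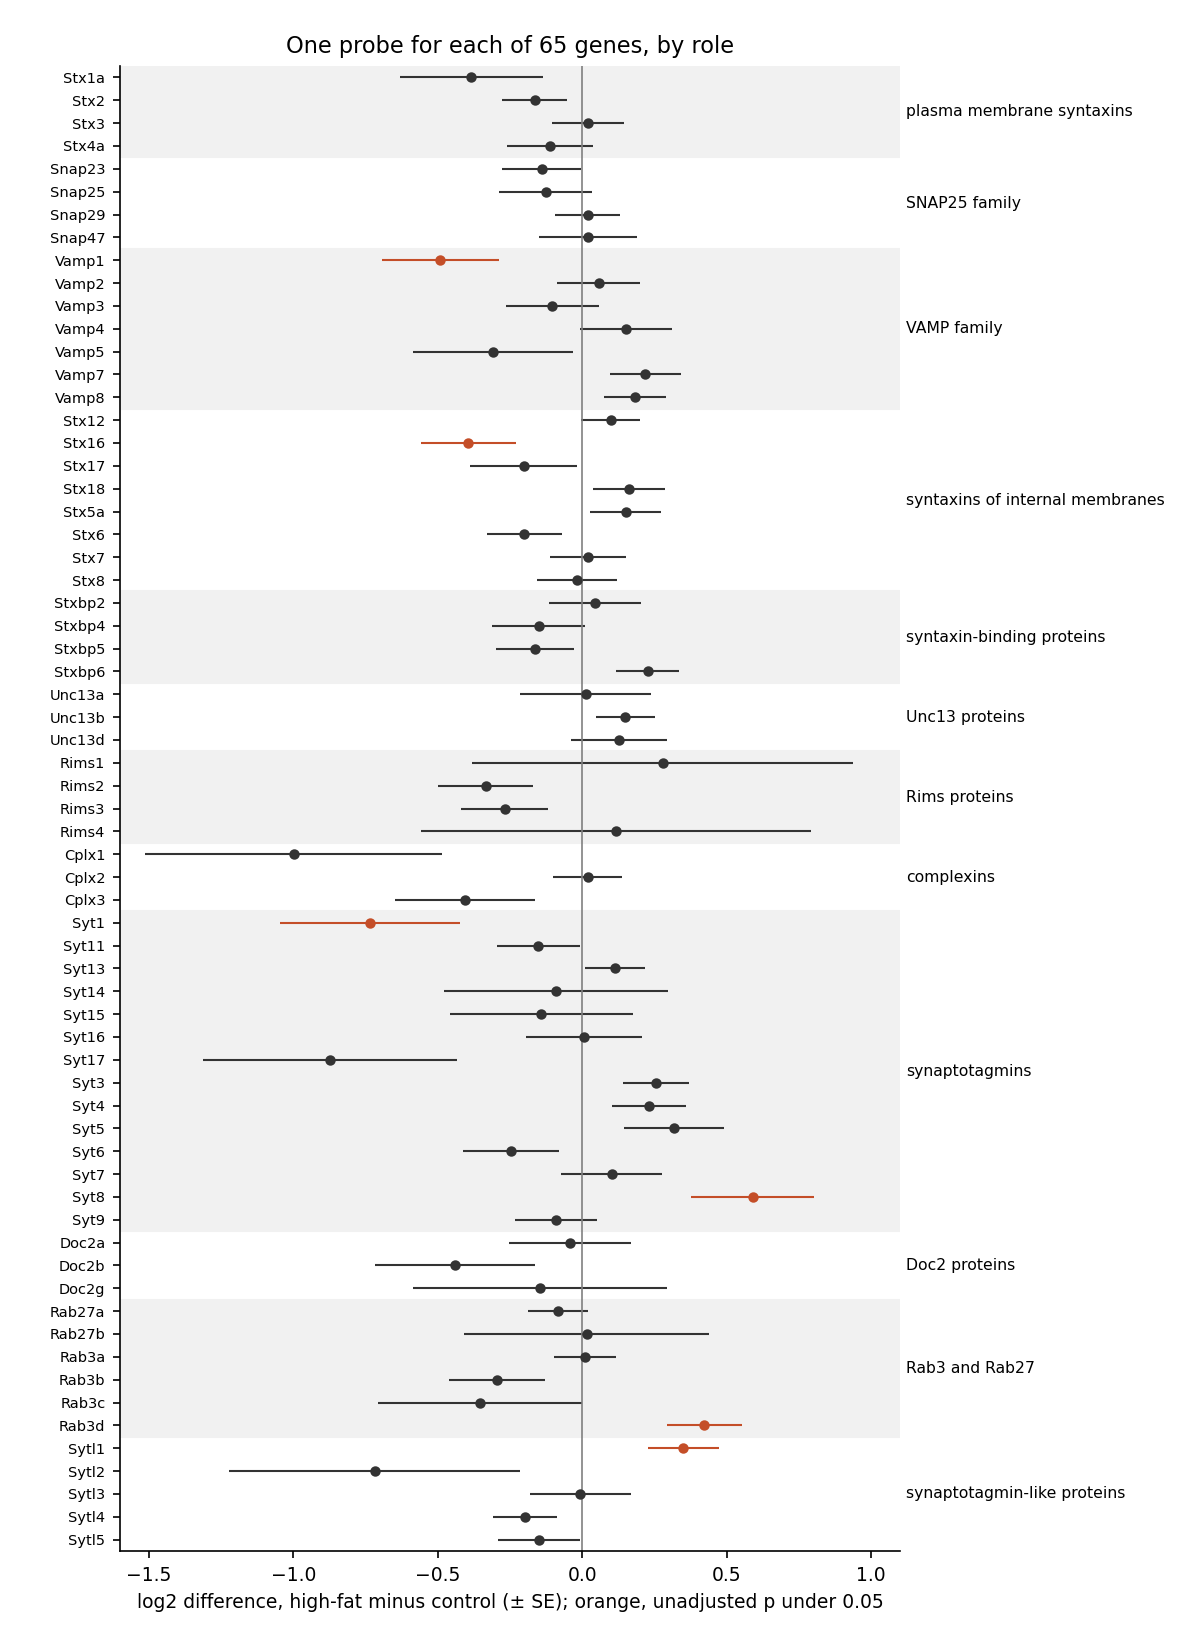
Log2 difference in level, high-fat minus control, with its standard error (4 arrays of each diet), for 1 probe of each of 65 genes, grouped by role. Orange marks an unadjusted p under 0.05. Syt8 (0.59), Rab3d (0.42) and Sytl1 (0.35) lie to the right of 0, and Syt1 (-0.74), Vamp1 (-0.49) and Stx16 (-0.39) to the left, and none passed the adjusted threshold.

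Among the plasma membrane syntaxins, 9 probes of 5 genes were analysed, 2 with a difference above 0 and 7 below, and 0 had an unadjusted p under 0.05. Stx1a, the syntaxin of the insulin granule's core complex, had levels of -1.94, -2.48, -2.34 and -2.82 on the high-fat arrays and -1.53, -2.24, -2.43 and -1.84 on the control arrays. The diets overlapped, with the lowest value in high-fat and the highest in control, and the difference was -0.38 ± 0.25 (SE; adjusted p = 0.921). Stx4a, a plasma membrane syntaxin that takes part in both phases of insulin release, averaged 3.06 ± 0.25 in high-fat and 3.17 ± 0.15 in control (SD, n = 4 each), a difference smaller than either SD. Stx2 and Stx3 differed by -0.16 and 0.02. Stx11 and Stx19 had no probe that met the background condition.

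The SNAP25 family held 8 probes of 4 genes, 5 with a difference above 0 and 3 below, all between -0.14 and 0.09. The single Snap25 probe gave 3.06, 2.85, 3.16 and 3.10 in high-fat and 3.10, 2.79, 3.41 and 3.38 in control. The high-fat values lay within the range of the control values, and the difference was -0.13 ± 0.16 (SE; adjusted p = 0.938). Snap29 and Snap47, relatives that act at several membranes, differed by 0.02 each. Snap23, the broadly expressed partner of the plasma membrane syntaxins, had 3 probes with differences of -0.14, 0.04 and 0.09.

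The Snap25 value rests on a probe with a repeat. The first 30 bases of the 60-base probes, as the scanner files give them, are printed because they set the Snap25 probe and the highest-level Snap23 probe apart from a second Snap23 probe without a repeat; capitals mark stretches of at least 16 bases that also occur in probes of other genes.
Snap25, chr2:136607709-136607768 (mm9, + strand): CACACACACACACACACACAAAGtggattt
Snap23, repeat probe, chr2:120425750-120425809 (mm9, + strand): ttgacggtagcctttaaaagATACACACAC
Snap23, probe without a shared stretch, chr2:120411292-120411905 (mm9, + strand): tctcaggatgcaggaatcaagaccatcact
The coordinates are the mm9 positions that the scanner files give for each probe, and a span longer than 60 bases is a probe placed in separate pieces. The Snap25 probe shared such a stretch with 33 probes of other genes, and the Snap23 repeat probe also with 33. The median level of the 32 analysed probes that shared the Snap25 stretch was 2.62, 2.48, 2.60 and 2.52 in high-fat and 2.67, 2.35, 2.95 and 2.85 in control. Like Snap25 itself, that median was lowest on control replicate 2 and highest on control replicates 3 and 4. The Snap23 probe printed without a shared stretch was lowest on control replicate 3, at -0.88, against -0.44 to -0.38 on the other control arrays. Another Snap23 probe without a shared stretch did not show this. It had -0.60, -0.53, -0.59 and -0.71 in control, lowest on control replicate 4. Whether the Snap25 probe reports Snap25 RNA or other RNA with the same repeat was not tested. Of all 101 exocytosis probes, 22 shared a stretch of 16 bases with another gene's probe (21.8%), against 15.5% of the probes on the array, and of the 9 probes with an unadjusted p under 0.05 only 1 did, that of Unc13d.

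The VAMP family, the SNAREs of the granule and of other vesicles, held 8 probes of 7 genes, 4 above 0 and 4 below. Vamp2, the granule partner of Stx1a and Snap25, had levels of 1.98, 1.62, 1.83 and 1.5 in high-fat and 1.92, 1.58, 1.62 and 1.58 in control, a difference of 0.06 ± 0.14 (SE; adjusted p = 0.968). Its diets overlapped, and control replicate 1 stood above the other 3 control arrays. Vamp1, a close relative of Vamp2 best known from neurons, had -1.17, -2.01, -1.64 and -1.83 in high-fat and -1.06, -1.27, -1.45 and -0.92 in control. It was 1.41-fold lower in high-fat (-0.49 ± 0.20 on the log2 scale, adjusted p = 0.83), with high-fat replicate 1 inside the control range. Vamp8, which serves secretory granules of exocrine cells and newcomer insulin granules, averaged 2.52 ± 0.14 in high-fat and 2.33 ± 0.07 in control (SD, n = 4 each). Its difference of 0.18 ± 0.11 (SE) had an adjusted p of 0.909. Vamp3, Vamp4, Vamp5 and Vamp7, which act mainly in endosomal and other traffic, differed by -0.10, 0.15, -0.31 and 0.22.

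The syntaxins of internal membranes held 12 probes of 8 genes, 4 above 0 and 8 below. Stx16, which works at the trans-Golgi network, had -1.14, -1.78, -1.41 and -1.31 in high-fat and -0.78, -1.10, -1.23 and -0.95 in control. It was 1.31-fold lower in high-fat (-0.39 ± 0.17, adjusted p = 0.833), and only high-fat replicate 1 lay within the control range. Stx5a, the Golgi syntaxin, and Stx18, the syntaxin of the endoplasmic reticulum, differed by 0.15 and 0.16. Stx6 and Stx17, of the trans-Golgi network and of autophagosomes, differed by -0.20 each, and Stx7, Stx8 and Stx12, of endosomes, by 0.02, -0.02 and 0.10.

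The syntaxin-binding proteins held 8 probes of 5 genes, 3 above 0 and 5 below. Stxbp6 (amisyn), which binds SNAREs in place of a VAMP, had 0.98, 1.00, 0.95 and 0.89 in high-fat and 0.68, 0.54, 0.84 and 0.86 in control. The 4 high-fat values all exceeded the 4 control values, as for 1.54% of all probes, and the difference of 0.23 ± 0.11 had an adjusted p of 0.873. This gene and Syt3, outside the naming rule, are named because there were only 3 exocytosis probes with no overlap between the diets, of 101 (2.97%), against 3.3% of all probes. Stxbp2, Stxbp4 and Stxbp5 differed by 0.04, -0.15 and -0.16.

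The Unc13 proteins, which open syntaxin and prime granules, held 5 probes of 3 genes, and Unc13c had no probe that met the background condition. Unc13a, the priming factor of neurons and beta cells, averaged -2.48 ± 0.22 in high-fat and -2.49 ± 0.44 in control (SD, n = 4 each), and Unc13b differed by 0.15. Unc13d, the member of blood cells and other non-neuronal secretory cells, had 2 probes that disagreed in sign. One, at chr11:115923410-115923469 (mm9, − strand), had -3.42, -4.01, -3.71 and -3.26 in high-fat and -2.80, -2.88, -2.71 and -3.38 in control. It was 1.58-fold lower in high-fat (-0.66 ± 0.21, adjusted p = 0.737), and control replicate 4 lay within the high-fat range. The other, at chr11:115936930-115936989, differed by 0.13 ± 0.17. The Rims proteins, scaffolds that bind Rab3 at release sites, held 6 probes of 4 genes, 2 above 0 and 4 below, and 0 had an unadjusted p under 0.05. Rims2, the main Rim of beta cells, had -2.08, -2.53, -1.94 and -2.41 in high-fat and -1.71, -1.86, -2.16 and -1.90 in control, a difference of -0.33 ± 0.16 (SE; adjusted p = 0.881). Rims1 and Rims4 had large SEs, 0.66 and 0.68, and their levels were higher on slide 2 than on slide 1, by 1.68 and 1.56. In limma's test of the slide beside diet, the adjusted p was 0.0465 for this Rims1 probe and 0.119 for Rims4. The other Rims1 probe was higher on slide 2 by 1.67 (adjusted p = 0.0191 in the same test).

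Complexins held 7 probes of 3 genes, 1 above 0 and 6 below, but 5 of the 7 probes belong to Cplx2. Cplx1, best known from fast neuronal release, had -2.71, -1.43, -2.87 and -2.93 in high-fat and -2.16, -1.05, -2.40 and -0.34 in control. Its difference of -0.999 ± 0.51 (SE; adjusted p = 0.885) was smaller on slide 1, at -0.47, than on slide 2, at -1.53, and high-fat replicate 2 lay above 2 of the control arrays. Leaving out control replicate 4 gave a difference of -0.62. The nerve markers Prph and Nefl, described after the Rab3 genes, ordered the 8 arrays as Cplx1 did, and their part in the Cplx1 value was not tested. Cplx3, the complexin of retinal and other neurons, differed by -0.41 ± 0.24. Its levels were low, between -5.09 and -3.91, and well above background on 4 high-fat and 3 control arrays. Cplx4 had no probe that met the background condition.

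Cplx2, the complexin described in insulin release, gave different pictures by probe. Of its 5 probes 4 are built of purines only, in a GAG-type repeat, and 1 holds no stretch shared with other genes' probes. That probe is shown beside the 2 repeat probes whose position in the files lies away from it.
Cplx2, probe without a shared stretch, chr13:54485200-54485259 (mm9, + strand): tccccactttgtatgatgcaaatgctaaga
Cplx2, repeat probe placed elsewhere on the chromosome, chr13:108816800-108816859 (mm9, + strand): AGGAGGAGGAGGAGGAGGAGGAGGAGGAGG
Cplx2, repeat probe placed on another chromosome, chr5:112438094-112438174 (mm9, + strand): AAGGAGGAGGAGGAGGAGGAGAAGGAAGAG
The unshared probe had 4.64, 4.64, 4.73 and 4.54 in high-fat and 4.49, 4.44, 4.83 and 4.71 in control, a difference of 0.02 ± 0.12 (SE; adjusted p = 0.987). The repeat probe placed on chromosome 5 had 2.24, 2.64, 2.60 and 1.88 in high-fat and 3.61, 2.74, 1.56 and 2.03 in control, so that its control arrays alone spread over more than the whole set of the unshared probe. The median of 18 purine-only probes of other genes was 2.48, 2.82, 2.88 and 2.03 in high-fat and 3.52, 2.93, 1.75 and 2.39 in control. Like that repeat probe it was highest on control replicate 1 and lowest on control replicate 3. The repeat probes did not all share this order. The one at chr13:54481354-54481413 had 4.03, 4.30, 3.11 and 2.47 in high-fat and 4.09, 3.95, 3.54 and 2.91 in control. Its highest value was on high-fat replicate 2 and its lowest on high-fat replicate 4. The 4 repeat probes had differences between -0.19 and -0.08, each with an SE of at least 0.38, and counted toward the 60 probes below 0. Leaving out all 22 probes with a shared stretch, 8 of 79 had an unadjusted p under 0.05 and the median difference was -0.03. Of all 26076 probes, those with shared stretches included, 5.78% had such a p.

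**Figure D2:**
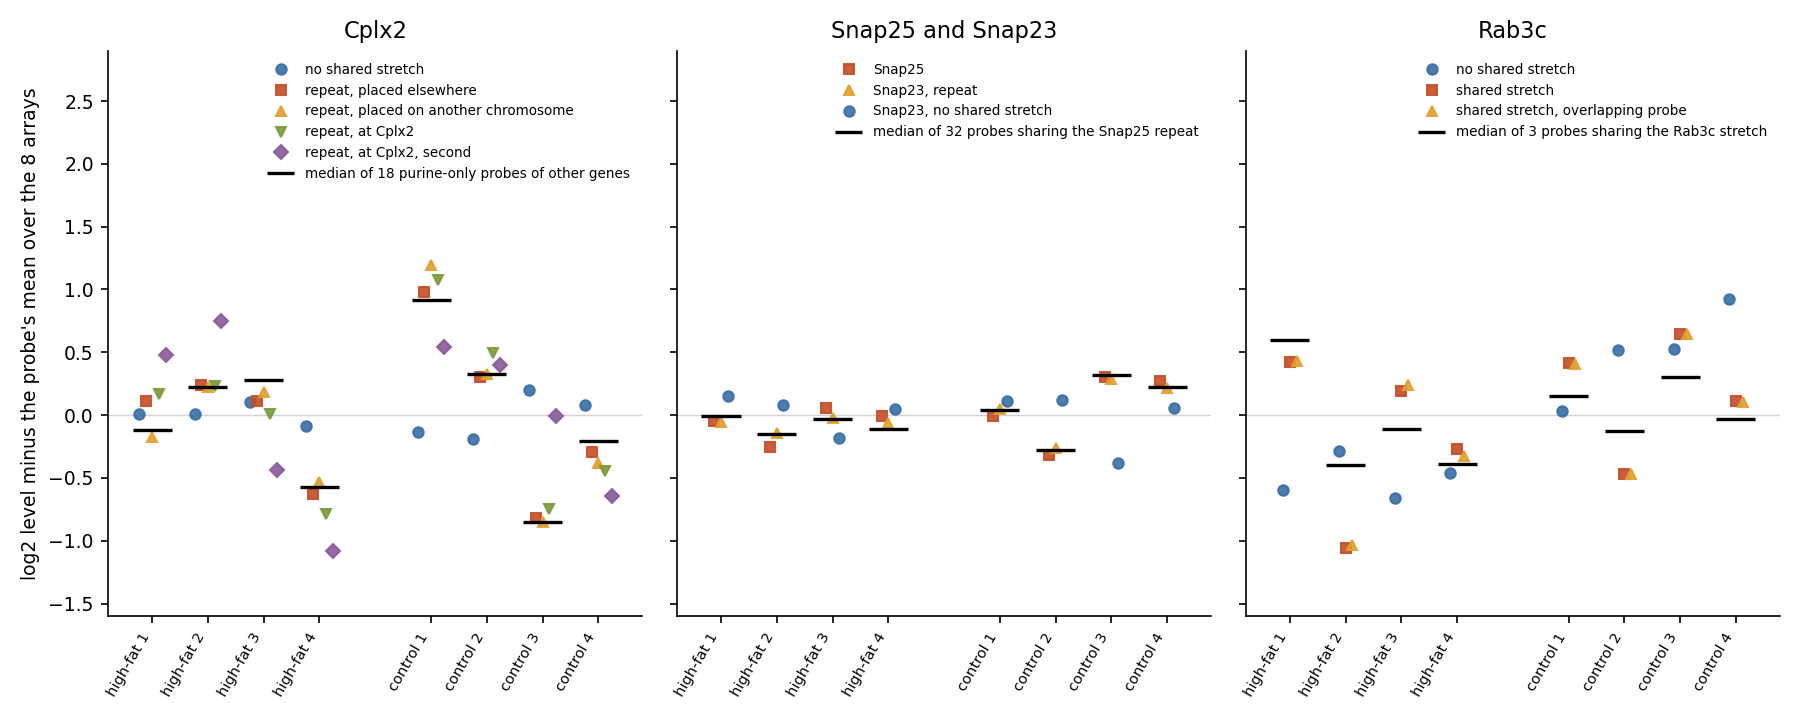
Log2 level on each array minus the mean of that probe over the 8 arrays, for the probes of Cplx2 (left), Snap25 and Snap23 (middle) and Rab3c (right), high-fat arrays to the left of control arrays. Black bars are medians of other genes' probes. At left they come from 18 probes built of purines only. In the middle and at right they come from 32 probes sharing the Snap25 stretch and 3 sharing the Rab3c stretch. The Snap25 probe and the Cplx2 repeat probe placed on another chromosome lie close to the bars on most arrays. Blue circles are probes without a shared stretch.

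The synaptotagmins, calcium sensors and related membrane proteins, held 16 probes of 14 genes, 9 above 0 and 7 below. Before adjustment, 1 of them was higher and 1 lower at p under 0.05. Syt7 had -0.29, -0.27, -0.09 and -0.39 in high-fat and -0.08, -0.22, -0.85 and -0.29 in control, a difference of 0.10 ± 0.17 (SE; adjusted p = 0.957), and its second probe differed by 0.18. Control replicate 3 was low for both Syt7 probes, and without it the difference of the first was -0.06. Syt9, another calcium sensor of insulin granules, averaged -1.35 ± 0.19 in high-fat and -1.26 ± 0.19 in control (SD, n = 4 each).

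Syt8, a synaptotagmin reported in islets, had -2.01, -1.43, -1.77 and -1.72 in high-fat and -2.76, -2.39, -1.81 and -2.35 in control. It was 1.51-fold higher in high-fat (0.59 ± 0.21, adjusted p = 0.792), with control replicate 3 inside the high-fat range. Slide 1 gave a difference of 0.85 and slide 2 one of 0.33. Syt1, the calcium sensor of fast synaptic release, had -1.88, -0.76, -2.01 and -1.33 in high-fat and -0.96, -0.48, -1.24 and -0.35 in control. It was 1.67-fold lower in high-fat (-0.74 ± 0.31, adjusted p = 0.84), and it was lower on both slides, by -0.60 and -0.87. High-fat replicate 2 lay within the control range. The nerve markers Prph and Nefl differed by -1.59 and -1.84, and their part in the Syt1 value was not tested.

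Syt4 and Syt13, synaptotagmins whose C2 domains do not bind calcium in the usual way, differed by 0.23 ± 0.13 and 0.11 ± 0.10. Syt4 had 0.65, 0.72, 0.93 and 1.15 in high-fat and 0.59, 0.66, 0.60 and 0.66 in control, with high-fat replicates 2 to 4 above every control array and replicate 1 among them. Syt3 had -0.68, -0.89, -0.83 and -1.03 in high-fat and -1.04, -1.06, -1.26 and -1.10 in control, without overlap but by a margin of 1 hundredth, and its difference of 0.26 ± 0.11 had an adjusted p of 0.866. Syt5 differed by 0.32 ± 0.17. Syt17 was well above background on 1 high-fat array and on 4 control arrays, and its difference of -0.87 ± 0.44 rests on signals near background. Syt6, Syt11, Syt14, Syt15 and Syt16 differed by between -0.25 and 0.01, and Syt2, Syt10 and Syt12 had no probe that met the background condition. Doc2b, a high-affinity calcium sensor that acts in insulin release, had -2.63, -2.83, -2.64 and -2.78 in high-fat and -2.73, -1.89, -2.87 and -1.63 in control. The high-fat arrays lay close together inside a wide control range, and the difference was -0.44 ± 0.28 (SE; adjusted p = 0.919).

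The Rab3 and Rab27 GTPases held 10 probes of 6 genes, 5 above 0 and 5 below. Before adjustment, 2 of these probes were higher and 1 was lower at p under 0.05. Rab3a, the best studied Rab3 of neurons and of insulin granules, averaged 3.85 ± 0.08 in high-fat and 3.84 ± 0.13 in control (SD, n = 4 each). Rab27a, which docks insulin granules, averaged 1.06 ± 0.07 in high-fat and 1.14 ± 0.13 in control. Rab3d, a Rab3 of exocrine and other secretory granules, was higher in high-fat by both of its probes. The first had 2.27, 2.63, 2.62 and 2.64 in high-fat and 2.06, 2.32, 2.11 and 1.99 in control. It was 1.34-fold higher (0.42 ± 0.13, adjusted p = 0.737), and high-fat replicate 1 fell short of 1 control array. The second, at another position of the gene, had -0.45, -0.15, 0.01 and 0.10 in high-fat and -0.55, -0.29, -0.75 and -0.48 in control, a difference of 0.40 ± 0.16 (adjusted p = 0.822). For both probes the difference was above 0 on each slide, at 0.26 and 0.12 on slide 1 and 0.58 and 0.67 on slide 2.

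Rab3c, a Rab3 of neurons and endocrine cells, had the largest difference among the 101 probes. Its probe without a shared stretch is shown beside one of the other 2 because the 2 kinds of probe differ in sequence.
Rab3c, probe without a shared stretch, chr13:110844454-110844513 (mm9, − strand): ctgttaggtatttagtttgtgtgtgaattc
Rab3c, probe with a shared stretch, chr13:110850524-110850583 (mm9, − strand): atgtTCTACAGAGTGAGTTCTAggatagca
The unshared probe had -2.64, -2.33, -2.71 and -2.51 in high-fat and -2.01, -1.53, -1.52 and -1.12 in control. The 4 high-fat values were all below the 4 control values, as for 1.76% of all probes, and the level was 2.00-fold lower in high-fat (-1.002 ± 0.19, adjusted p = 0.383), by -0.71 on slide 1 and -1.29 on slide 2. The probe with a shared stretch had 3.43, 1.95, 3.20 and 2.74 in high-fat and 3.42, 2.54, 3.65 and 3.12 in control, with overlap and a difference of -0.35 ± 0.35 (adjusted p = 0.93). Leaving out high-fat replicate 2 gave -0.06, and leaving out the control array of that number gave -0.57. The third probe overlaps it by 54 of 60 bases, so the 2 are not independent, and differed by -0.34. The capitals occur in 3 probes of other genes and read like the mouse B1 repeat, a short interspersed element found in many transcripts. The median level of those 3 probes was 7.93, 6.93, 7.22 and 6.94 in high-fat and 7.48, 7.20, 7.63 and 7.30 in control. High-fat replicate 2 was the lowest for the Rab3c probe with the shared stretch and, almost level with high-fat replicate 4, for that median. The highest array was high-fat replicate 1 for the median and control replicate 3 for the Rab3c probe. Which RNA the shared-stretch probe reports was not tested.

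Beside these values stand the markers of the other islet cells. Of the 6 alpha-cell markers, 4 had an unadjusted p under 0.05, all lower in high-fat, among them Irx1 and Irx2, by -1.10 and -0.78. Gcg, the glucagon gene, differed by -0.17 and Ttr by 0.03. Of the 5 delta- and PP-cell markers, 4 were lower at an unadjusted p under 0.05, Sst, Hhex, Rbp4 and Ghsr, by -0.39, -0.60, -0.45 and -1.02, and Ppy differed by -0.04. None passed the adjusted threshold, and all 11 markers were well above background on all 8 arrays. The summed level of the alpha list was 276.1 to 334.5 in high-fat and 270.8 to 372.4 in control, and that of the delta and PP list 225.8 to 284.6 in high-fat and 282.9 to 354.4 in control. Fewer cells of a type and less RNA per cell cannot be told apart in these bulk samples, and the part of other islet cells in the Rab3c, Syt1, Cplx1, Vamp1, Stx16 and Unc13d values was not tested. For none of these probes did the level over the 8 arrays relate to the summed level of the acinar, the alpha or the delta and PP list at an adjusted p under 0.05 in an exact permutation test of 303 relations.

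Of the 8 nerve and Schwann-cell markers, all 8 met the background condition, 7 differed below 0 and 1 above, the median difference was -0.40, and 0 had an unadjusted p under 0.05. Their summed level was 3.95 to 6.94 in high-fat and 5.72 to 8.64 in control. Prph, a neuronal intermediate filament, had -2.16, 0.01, -2.43 and -2.93 in high-fat and -0.90, 0.54, -1.57 and 0.76 in control, a difference of -1.59 ± 0.73 (SE; adjusted p = 0.871). Nefl, the light neurofilament chain, had -3.77, -1.30, -4.07 and -4.86 in high-fat and -2.29, -0.81, -3.27 and -0.26 in control, a difference of -1.84 ± 0.88 (adjusted p = 0.873). S100b, a glial calcium-binding protein, and Tubb3, a neuronal tubulin, differed by -0.69 and -0.47. For Prph, Nefl and Cplx1 the 8 arrays stood in the same order, with control replicate 4 highest, then control replicate 2 and high-fat replicate 2, and high-fat replicate 4 lowest. Syt1 shared the order of the 5 highest arrays. The part of nerve and Schwann cells in the Cplx1, Syt1 and other lower values was not tested, and this list was not among the 303 relations.

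The synaptotagmin-like proteins, which link Rab27 to the membrane, held 9 probes of 5 genes, 2 above 0 and 7 below. Sytl1, a Rab27 effector of exocrine and blood cells, had 2.65, 2.79, 2.44 and 2.66 in high-fat and 2.32, 2.46, 2.25 and 2.10 in control. It was 1.27-fold higher in high-fat (0.35 ± 0.12, adjusted p = 0.792), by 0.32 on slide 1 and 0.38 on slide 2, with high-fat replicate 3 inside the control range. A second Sytl1 probe differed by 0.32 ± 0.16. Sytl4 (granuphilin), which docks insulin granules, had 3.91, 3.69, 3.84 and 3.72 in high-fat and 4.10, 4.08, 3.83 and 3.95 in control, with 3 of the control arrays above every high-fat array. Its difference was -0.20 ± 0.11 (SE; adjusted p = 0.904), and its second probe differed by -0.25. Sytl3 and Sytl5 differed by -0.01 and -0.15, and Sytl2, well above background on 2 high-fat arrays and 3 control arrays, by -0.72 ± 0.50.

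**Figure D3:**
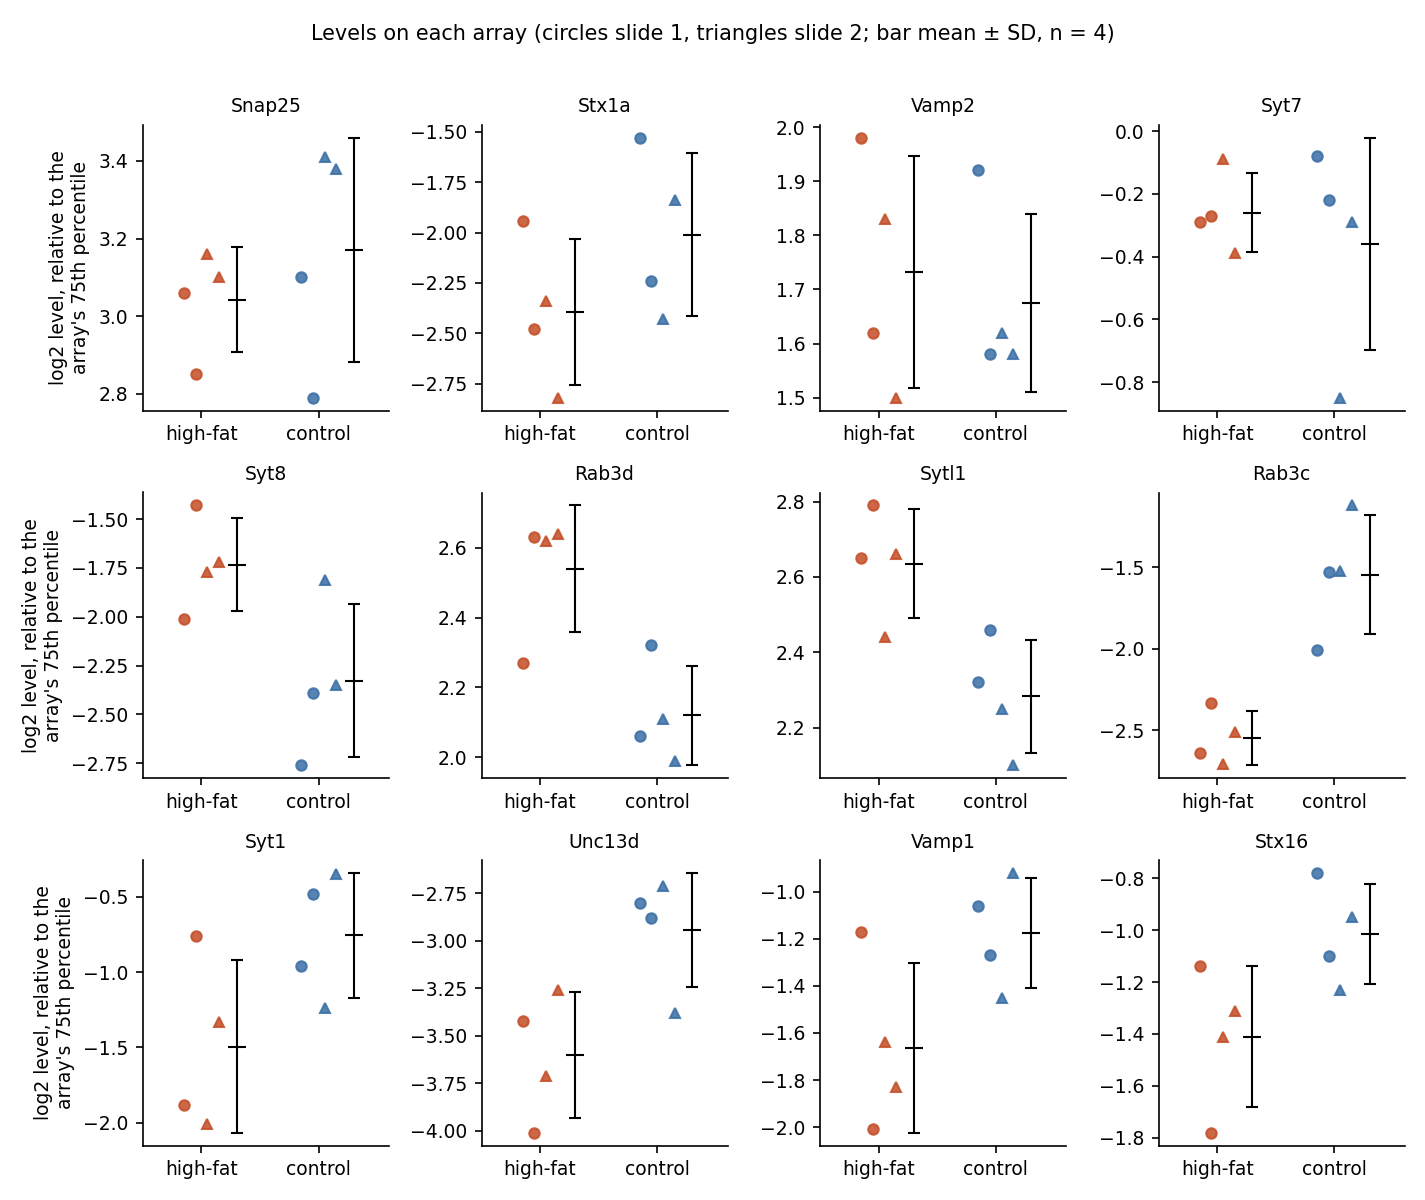
Log2 level relative to the array's 75th percentile on each array, high-fat to the left of control, for Snap25, Stx1a, Vamp2 and Syt7 (top row) and for 1 probe of each gene with an unadjusted p under 0.05. Circles are slide 1, triangles slide 2, and bars give the mean ± SD over 4 arrays; only the Rab3c probe has no overlap between the diets.

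In the authors' deposited table the differences of Syt8, Syt1, Vamp1 and Stx16 had the same sign but were smaller, at 0.21, -0.30, -0.19 and -0.14, and none passed the adjusted threshold there. Not every difference shrank in this way. The first Rab3d probe and Sytl1 had 0.37 and 0.31, against 0.42 and 0.35 with the 75th percentile. Sytl4 was larger, at -0.31 against -0.20. The differences of the unshared Rab3c probe, of Cplx1, of the lower Unc13d probe and of the second Rab3d probe were -0.31, -0.30, -0.08 and 0.20 in that table. With normexp background correction (offset 50), fitted without spots of high local background, the same 4 were -0.62, -0.61, -0.18 and 0.27. The cause of these changes in size was not tested.

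Across the slides, 55 of the 101 probes had a difference of the same sign on both (54.5%), as did 52.4% of all probes. All 9 probes with an unadjusted p under 0.05 over both slides kept their sign on each slide, which the pooled difference favours. With the slide as a block 9 exocytosis probes had an unadjusted p under 0.05 (all probes 7.18%) and 0 passed after adjustment. The test of the difference itself, the interaction of diet and slide in limma over all probes, passed for 0 exocytosis probes after adjustment (0% of all probes), and 6 had an unadjusted p under 0.05, against 6.53% of all probes. The level itself, over both diets, differed between the slides for 16 exocytosis probes at an unadjusted p under 0.05 (18.4% of all probes) and for 2 after adjustment (2.73% of all probes). These 2 were the Rims1 probes. Of the probes whose difference ran opposite ways, both Rab27b probes differed by 1.01 and 0.93 on slide 1 and by -0.56 and -0.90 on slide 2.

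**Figure D4:**
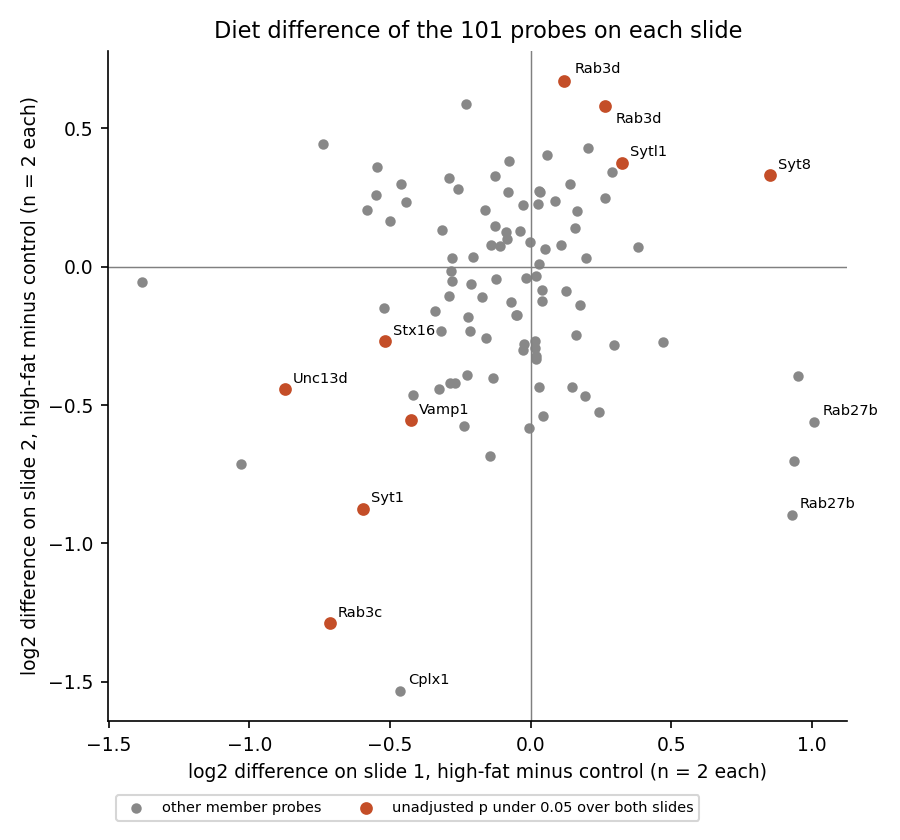
Log2 difference, high-fat minus control, on slide 1 (horizontal axis) and slide 2 (vertical axis) for the 101 probes, 2 arrays of each diet per slide. Orange points are the 9 probes with an unadjusted p under 0.05 over both slides, all at the lower left or upper right, where both slides have the same sign, and the Rab27b probes lie at the lower right.

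Rab27b, the Rab27 of exocrine and other secretory granules, falls outside the naming rule and was chosen after its values were seen. The reason was that it alone had a probe whose level related to the acinar, the alpha or the delta and PP list after adjustment. The probe had -1.98, -2.17, -3.12 and -2.63 in high-fat and -3.49, -2.67, -2.07 and -2.55 in control, and the summed acinar level was 3074, 2541, 1715 and 2039 in high-fat and 1428, 2211, 2819 and 2075 in control. Control replicate 1 was lowest in both and high-fat replicate 1 highest in both. Over the 8 arrays Pearson's r was 0.983 (two-sided exact permutation p = 0.000149, adjusted p = 0.0451 over 303 relations). Spearman's rho was 0.929 (exact permutation p = 0.00223, adjusted p = 0.676), which did not pass. Without the 2 arrays farthest from the median acinar level, r was 0.966. The summed level of the beta list was 1086, 1004, 814.8 and 893.3 in high-fat and 734.3, 915.8, 1065 and 1014 in control. It too was lowest on control replicate 1 and highest on high-fat replicate 1. That list was not among the 303 relations, so whether the relation is particular to the acinar list was not tested. The second Rab27b probe had r = 0.889 and rho = 0.738 with the acinar list by the same exact permutation test, with adjusted p of 0.521 and 0.949. This second probe had the higher mean level of the 2. It shared a stretch of at least 16 bases with 9 probes of other genes, and the first probe with 0. Which RNA the second probe reports was not tested. With the alpha list r was 0.706 and rho 0.81 for the first probe, and r was 0.834 and rho 0.857 for the second, with adjusted exact permutation p of 0.726 and 0.621 for r and 0.769 for both rho. Without the 2 arrays farthest from the median alpha level, r was 0.465 and 0.619. With the delta and PP list r was -0.745 and -0.551 (adjusted exact permutation p = 0.726 and 0.788) and rho -0.667 and -0.476, and without the 2 farthest arrays the first r was -0.18. None of these relations with the alpha or the delta and PP list passed. A slide or a diet holds 4 arrays, too few for a value within it. The 2 Rab27b probes differed between the diets by 0.22 and 0.02. Rab3d, Sytl1 and Vamp8 are also known from acinar or other exocrine granules, and for their probes r with the acinar list lay between -0.25 and 0.32, with an adjusted p of at least 0.933 in the same exact permutation test.

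**Figure D5:**
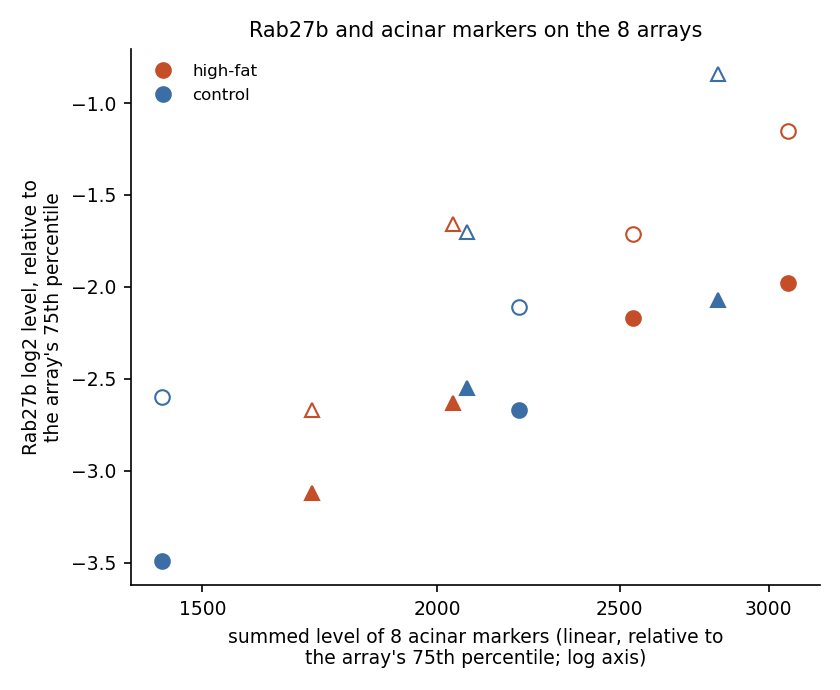
Log2 level of the 2 Rab27b probes (filled, the probe described first; open, the second) against the summed level of 8 acinar markers on the 8 arrays (log axis), with high-fat in orange, control in blue, circles for slide 1 and triangles for slide 2. Filled symbols run from -3.49 at the lowest acinar level, control replicate 1, to -1.98 at the highest, high-fat replicate 1.

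Other secretion genes outside the symbol rule, 51 in all with 79 probes, were counted alongside. Of these probes 1 was higher and 9 were lower in high-fat at an unadjusted p under 0.05 (12.7%), and 0 passed after adjustment. Over all probes 5.78% had such a p, 2.33% higher and 3.46% lower. The median difference of the 79 probes was -0.08, and that of all probes -0.01. The higher probe belonged to Bet1, a SNARE between endoplasmic reticulum and Golgi, at 0.39. The lower ones belonged to Sv2b and Syn2 (synaptic vesicle proteins), Napb (a SNARE recycling adaptor), Rab3il1 (an activator of Rab3 and Rab8 proteins), Stxbp3a and Stxbp5l (syntaxin-binding relatives, 2 probes each) and Mlph (a Rab27 effector), with differences between -1.10 and -0.28. Of the 11 alpha-, delta- and PP-cell markers 8 were lower at an unadjusted p under 0.05, 7 of the 8 nerve and Schwann-cell markers differed below 0 beside these values, and their part was not tested.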

How the data were processed

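The deposited scanner files hold intensity values: per the file headers, Agilent Feature Extraction produced background-subtracted processed signals, and the submitters' processing notes name version 11.5.1.1 and limma. The authors also deposited a table of log2 values, used as an alternative; no source used here states how it was normalized between arrays. Outlier and control spots were left out, log2 intensities were scaled to each array's 75th percentile, and spots were averaged per probe. Probes that cleared background on 4 or more of the 8 arrays were tested with limma 3.58.1 (R 4.3.3), 4 high-fat against 4 control arrays, with Benjamini-Hochberg adjustment over all 26076 probes; the method was tested on simulated data. A gene with several probes is represented by the probe with the highest mean level. The number of arrays limits the precision, and p-values measure the spread between these samples. Named genes are the core complex genes, listed insulin release genes, genes with an unadjusted p under 0.05 and the 3 highest and 3 lowest differences among probes well above background on all arrays. The members, gene lists and alternatives were chosen with earlier results of these data known, including a normexp alternative fitted without spots of high local background. Relations to marker lists used exact permutation over 8 arrays (Python 3.11.15). Probe positions are those in the files (mm9). Some genes and probe sequences are not reported here.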

Additional observations from a re-analysis of the deposited data

Results flagged for a closer look

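Among the named exocytosis probes, each diet's 4 arrays were examined for 1 array far from the other 3 by Dixon's criterion, in 58 groups; chance marks about 1 in 20 such groups, and 3 were marked. For Cplx1, high-fat replicate 2 was high, at -1.43, with the other 3 high-fat arrays between -2.93 and -2.71. For Rab3d, high-fat replicate 1 was low, at 2.27, with the other 3 between 2.62 and 2.64. For Vamp2, control replicate 1 was high, at 1.92, with the other 3 control arrays between 1.58 and 1.62. No diet difference of a named probe differed between the slides after adjustment.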

How the results depend on the processing

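No named exocytosis gene passed the adjusted threshold under any alternative run (smallest adjusted p 0.236), and the median difference of the exocytosis probes stayed below 0, between -0.095 and -0.0076. Over all probes 0 passed after adjustment, against 1 in the authors' deposited table and 1 with a trended, robust variance. The 1508 probes with an unadjusted p under 0.05 became 893 with normexp background correction and 2422 with the replicate block, and the 9 exocytosis probes became 16 with the block. Levels of any 2 arrays correlated by 0.9638 to 0.9871. After each probe's mean in its diet was subtracted, same-numbered arrays of the 2 diets correlated by 0.237, 0.394, -0.024 and 0.299. Replicates 1, 2 and 4 matched their own number best, and replicate 3 matched replicate 1 better than its own number. Arrays of the same number also sat on the same slide, so these values cannot show whether the numbers pair the samples. The block changed no other call. Leaving out each array in turn gave 1043 to 2702 for all probes, the most without high-fat replicate 1, and for the exocytosis probes 4 (control replicate 1 or 4 left out) to 15 (control replicate 3 left out). Of the unadjusted calls over all probes 40.3% were higher in high-fat, against 54.6% with quantile normalization, 65% with median scaling, 57.1% with normexp and 56.5% in the deposited table. Differences near 0 changed sign: Rab3a was -0.0583 with normexp, -0.0756 with quantile normalization, -0.11 in the deposited table and -0.0832 on slide 1; Unc13a -0.0135 with normexp and -0.2573 on slide 1; Cplx2 -0.0939 with quantile normalization, -0.069 in the deposited table and -0.1366 on slide 2; Syt9 5e-04 in the deposited table and 0.1325 on slide 2; Snap25 0.0141 and Syt7 -0.1269 on slide 1. With 1 array left out, Cplx2 ran from -0.0409 to 0.0877, Rab3a from -0.0281 to 0.0715, Unc13a from -0.1927 to 0.1578, Stx4a from -0.1903 to 0.004, Syt7 from -0.0623 to 0.1945 and Vamp2 from -0.0263 to 0.1401. The cause of these changes was not tested. Leaving out probes with a shared stretch was chosen after seeing the data.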
